A study of Mus musculus with 12 samples.

Results

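The TRIM family, most of whose members are ubiquitin ligases, was followed across RNA-seq libraries of mouse bone marrow-derived macrophages, which are primary phagocytes grown from marrow in culture. Members were all genes of the deposited table whose symbol is Trim followed by a digit, which gave 68 of 21899 genes. At least 1 read was counted for 56 of them. Of these, 44 passed the filter on low counts and were tested and 12 did not. The other 12 of the 68 had no read in any library. Per the labels the cells were primary and of wild-type genotype, and all groups share this background. There were 4 groups of 3 libraries each: cells given PgLPS and CS-PA/CNP, cells given PgLPS, cells given CS-PA/CNP, and control cells. The labels spell out neither abbreviation and give no dose, time, age or strain. The series title concerns a hydrogel for treating periodontitis together with hypertension, and its design text speaks of macrophages cultured with either agent. The titles number biological replicates without saying which animal or culture each one is, so a p-value here measures the spread between these libraries, which may be technical.

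TRIM proteins are named for a RING domain that attaches ubiquitin, followed by B-box and coiled-coil domains through which they assemble, and most have a C-terminal domain that selects the target. Several members, such as Trim14, Trim16, Trim29, Trim44 and Trim66, lack the RING domain. Many are interferon-stimulated genes of macrophages, and several act on the cytosolic sensing of viral RNA and DNA or on Toll-like receptor signalling, where they add ubiquitin to sensors, adaptors and kinases. Others silence chromatin with Krüppel-associated box zinc finger proteins or bind microtubules.

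Libraries held 14992707 to 20082900 counted reads. Levels are given as counts per 1000000 reads scaled with edgeR's TMM factors (CPM). Levels of different genes are compared only per gene length, as reads per kilobase and per 1000000 reads (RPKM). Trim genes took 0.267 to 0.286% of reads with PgLPS and CS-PA/CNP, 0.275 to 0.312% with PgLPS, 0.169 to 0.176% with CS-PA/CNP and 0.178 to 0.182% in control cells. The summed level of 8 macrophage markers was 28202 to 29647 CPM with both agents, 29272 to 31669 CPM with PgLPS, 22709 to 24336 CPM with CS-PA/CNP and 19985 to 21391 CPM in control cells, and with PgLPS over control 7 of them were called higher and 1, Cd68, lower (edgeR). Mitochondrially encoded genes took 1.21 to 1.28% of reads with both agents, 1.07 to 1.17% with PgLPS, 1.60 to 1.74% with CS-PA/CNP and 1.62 to 1.82% in control cells. A list of 6 stromal cell markers summed to 1.91 to 4.62 CPM with both agents, 5.82 to 53.5 CPM with PgLPS, 0.607 to 2.10 CPM with CS-PA/CNP and 0.472 to 2.71 CPM in control cells. The highest sum is that of PgLPS library 1, and without it 30 members were called for PgLPS over control and 5 for both agents over PgLPS, against 30 and 7 with it. The sum of 6 T cell markers was 3.58 to 3.95 CPM with both agents, 2.10 to 3.89 CPM with PgLPS, 9.77 to 13.3 CPM with CS-PA/CNP and 16.9 to 18.9 CPM in control cells, and the defining marker Cd3d had 0 reads throughout, while Cd28 gave most of the sum in control cells. Only 2 of these markers were tested. With PgLPS over control 1 was called higher and 1 lower (edgeR), beside 32.2% of all genes higher and 31.6% lower. Neutrophil markers (8 genes) summed to 180 to 207 CPM with both agents, 225 to 251 CPM with PgLPS, 115 to 167 CPM with CS-PA/CNP and 151 to 183 CPM in control cells. Dendritic cell markers (6 genes) summed to 4.74 to 6.12 CPM with both agents, 4.48 to 7.40 CPM with PgLPS, 0.939 to 1.83 CPM with CS-PA/CNP and 1.16 to 1.73 CPM in control cells, and 6 B cell markers to 2.60 to 6.04 CPM over all libraries. The part of these markers and of the mitochondrial share in the Trim results was not tested.

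PgLPS against control asked which Trim genes differ in cells given PgLPS. Trim30c, Trim30b, Trim30d and Trim30a, which lie in a cluster on chromosome 7, rose most, followed by Trim34a, Trim21, Trim46, Trim12a, Trim12c and Trim5. Trim59, Trim2, Trim47, Trim37 and Trim24 fell by the most. Of 44 tested Trim genes, 19 were higher with PgLPS, 11 were lower and 14 did not pass the test (edgeR quasi-likelihood test, Benjamini-Hochberg adjusted p under 0.05 over 11656 genes). The 30 called genes are 68.2% of the tested members, against 63.8% called among all genes, so the share of members called lies near the background. Among all genes 32.2% were higher and 31.6% lower. By at least 2-fold, 14 members were higher and 5 lower, beside 11.8% of all genes higher and 12.6% lower by that much. The median log2 fold change was 0.14 over the members and -0.0036 over all genes tested. Scaling by library totals in place of TMM moved the median of all genes by -0.41 on the log2 scale and gave 18 Trim genes higher and 20 lower. In these bulk libraries, fewer cells of a type and less RNA per cell cannot be told apart.

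**Figure D1:**
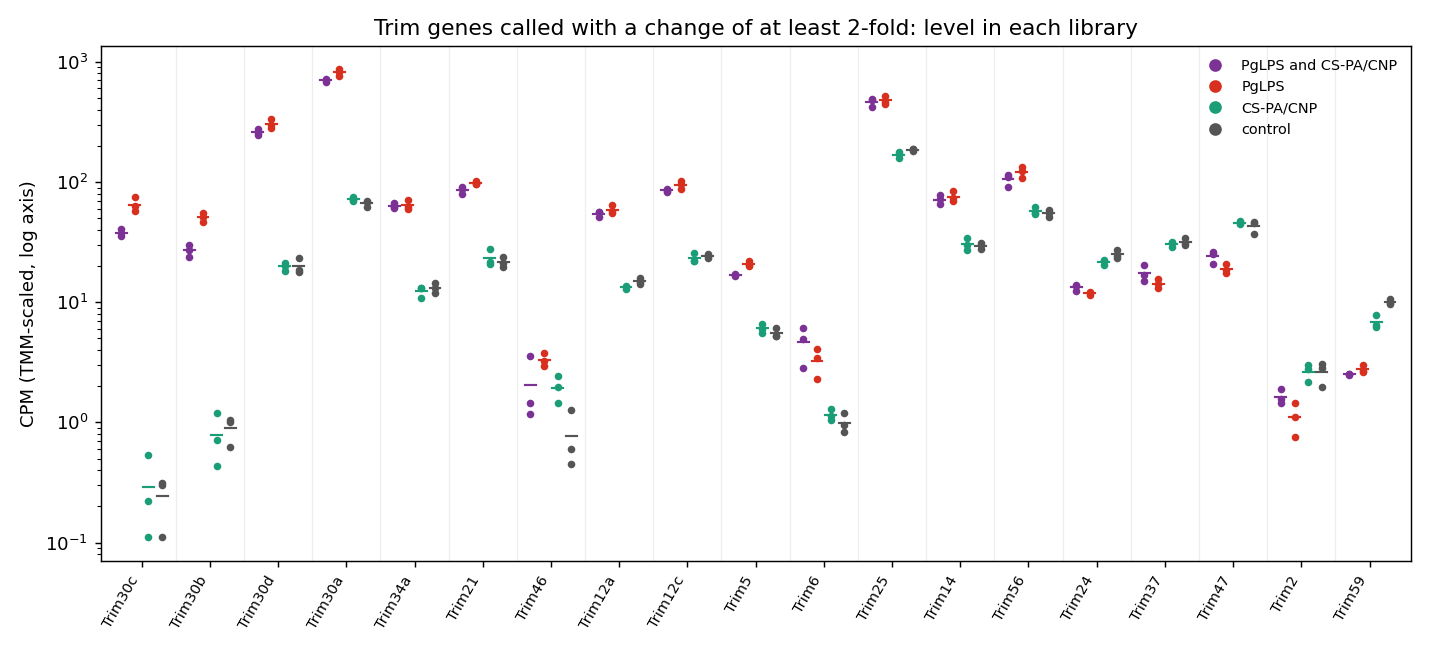
Level of each Trim gene that was called with a change of at least 2-fold in any comparison, in CPM on a log axis, with 1 point per library and a line at the mean of 3 libraries. The 14 genes at the left lie higher with PgLPS than in control cells, and the 5 at the right lie lower. With both agents the lowest Trim46 library, at 1.17 CPM, lies within the control range.

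The chromosome 7 cluster holds 10 Trim genes, in the order Trim6, Trim34a, Trim5, Trim12a, Trim34b, Trim12c, Trim30b, Trim30c, Trim30a and Trim30d. Their RefSeq promoters span chr7:104218545-104508099 in GRCm38.p6, a distance of 289555 bases that held promoters of only 2 other genes in that table, Gm15133 and Gm38525. Mouse Trim5, Trim12a and Trim12c are relatives of primate TRIM5, a restriction factor that binds retroviral capsids, and mouse Trim30a is known to lower Toll-like receptor signalling by removing the kinase adaptors Tab2 and Tab3. All 9 tested genes of the cluster rose with PgLPS, under library totals as well, and their median log2 fold change was 2.27. Of all genes 32.2% were called higher with PgLPS. Trim34b was too low to test, with 5, 7 and 6 reads with both agents, 2, 5 and 4 with PgLPS, 1, 1 and 5 with CS-PA/CNP and 0, 2 and 2 in control cells. The cluster took 39.6 to 40.6% of all Trim reads with both agents and 42.8 to 44.6% with PgLPS, against 9.40 to 10.2% with CS-PA/CNP and 9.03 to 9.65% in control cells.

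Stretches of 9 promoters are shown because they differ within the cluster in a motif of interferon-stimulated genes. They run from 60 bases before to 40 after the start that RefSeq gives, on the gene's own strand in GRCm38.p6. For Trim30a the most upstream start is shown. RefSeq gives it another one, with its promoter at chr7:104446076-104446375, which also holds the core marked below. Capitals mark the core of the interferon-stimulated response element, GAAANNGAAA, which reads TTTCNNTTTC on the other strand. In Trim21, outside the cluster on the same chromosome, a pair of overlapping cores is marked as 1 run.
Trim21 (chr7:102565443-102565542, minus strand): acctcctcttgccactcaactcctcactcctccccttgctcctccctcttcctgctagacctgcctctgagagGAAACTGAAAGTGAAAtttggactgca
Trim34a (chr7:104244397-104244496, plus strand): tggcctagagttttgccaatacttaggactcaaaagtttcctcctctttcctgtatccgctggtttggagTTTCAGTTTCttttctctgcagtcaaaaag
Trim5 (chr7:104288067-104288166, minus strand): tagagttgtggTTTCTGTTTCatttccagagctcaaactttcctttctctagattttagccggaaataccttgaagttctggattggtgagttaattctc
Trim12a (chr7:104315456-104315555, minus strand): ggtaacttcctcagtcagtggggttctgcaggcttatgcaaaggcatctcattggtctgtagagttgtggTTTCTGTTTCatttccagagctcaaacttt
Trim12c (chr7:104353310-104353409, minus strand): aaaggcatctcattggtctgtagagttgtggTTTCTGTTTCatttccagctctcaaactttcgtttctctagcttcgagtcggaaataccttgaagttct
Trim30a (chr7:104465154-104465253, minus strand): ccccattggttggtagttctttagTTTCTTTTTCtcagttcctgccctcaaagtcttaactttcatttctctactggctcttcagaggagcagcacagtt
Trim30d (chr7:104507810-104507909, minus strand): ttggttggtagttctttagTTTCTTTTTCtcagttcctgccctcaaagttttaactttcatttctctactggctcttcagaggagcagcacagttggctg
Trim30b (chr7:104358607-104358706, minus strand): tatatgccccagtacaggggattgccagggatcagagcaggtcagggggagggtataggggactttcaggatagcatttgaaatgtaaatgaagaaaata
Trim30c (chr7:104400739-104400838, minus strand): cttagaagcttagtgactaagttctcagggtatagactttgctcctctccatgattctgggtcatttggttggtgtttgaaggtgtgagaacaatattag

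The core was searched on both strands from 250 bases before to 50 after each start. The promoter table held 53 of the 68 members and 32 of the 44 tested. Among the genes higher with PgLPS, 16 had a promoter there and 8 of these held the core: Trim21, Trim34a, Trim5, Trim12a, Trim12c, Trim30a, Trim30d and Trim26. It was found in 1 of 9 lower genes, Trim2, and in 0 of 7 genes that were not called, while 3.99% of all 27025 genes with a promoter held it. Trim30b, Trim30c and Trim6 had no match in this window, although Trim30b and Trim30c rose by the largest factors. The windows of Trim5 and Trim12a shared an unbroken run of 241 bases that contains the core, and those of Trim30a and Trim30d shared 118 bases that contain it. The longest run that Trim12c shared with Trim5 or Trim12a was 71 bases and lacks the core. In the stretches printed above, the bases directly on both sides of the core are also the same in Trim5, Trim12a and Trim12c. Cores in such shared sequence are not independent of one another in the count of 8. Trim30c shared at most 32 bases in a row with any other promoter shown, and Trim30b at most 11. A form of the NF-kB site, GGGANNTTCC, was in 0 of the 16 higher genes and in 1 of the 9 lower ones, Trim28, beside 1.63% of all genes. The core of the antioxidant response element, TGACNNNGC, was in 1 of the 16 higher genes, Trim30b, and in 2 of the 9 lower ones, Trim59 and Trim2, beside 14.0% of all genes.

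Trim30a, the family's most abundant member per length with PgLPS, had 721, 684 and 702 CPM with both agents, 866, 765 and 830.4 CPM with PgLPS, 75.5, 71.1 and 69.5 CPM with CS-PA/CNP and 68.9, 68.4 and 61.9 CPM in control cells. Trim30d had 275, 248 and 254 CPM with both agents, 337, 282 and 298 CPM with PgLPS, 20.1, 21.4 and 18.1 CPM with CS-PA/CNP and 23.3, 18 and 18.5 CPM in control cells. For both genes every library with PgLPS lay far above every library without it. Relative to control, the log2 fold change with PgLPS was 3.63 ± 0.07 (SE) for Trim30a (edgeR adjusted p = 5.3e-19) and 3.94 ± 0.10 (SE) for Trim30d (edgeR adjusted p = 5.1e-17). These are increases of 12.3-fold and 15.3-fold. Trim30a alone took 23.7 to 24.5% of all Trim reads with PgLPS and 4.0 to 4.41% in control cells.

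Trim30c and Trim30b were near silent without PgLPS. Trim30c had 40.4, 35.5 and 37.6 CPM with both agents, 74.5, 56.9 and 63.4 CPM with PgLPS, 0.1104, 0.539 and 0.223 CPM with CS-PA/CNP and 0.314, 0.302 and 0.112 CPM in control cells. The last 2 groups rest on 2, 10 and 5 reads with CS-PA/CNP and 6, 6 and 2 reads in control cells, so the size of the fold is set by few reads. Trim30b had 30.1, 23.7 and 27.1 CPM with both agents, 54.8, 46.3 and 51.2 CPM with PgLPS, 0.718, 0.431 and 1.21 CPM with CS-PA/CNP and 0.629, 1.06 and 1.01 CPM in control cells. Neither gene's PgLPS libraries came near those without PgLPS. The log2 fold change with PgLPS relative to control was 8.0 ± 0.23 (SE) for Trim30c (edgeR adjusted p = 2.5e-16) and 5.81 ± 0.19 (SE) for Trim30b (edgeR adjusted p = 3.6e-15).

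The other cluster genes rose by smaller factors. Trim34a had 66.3, 61.6 and 61.2 CPM with both agents, 70.98, 59.4 and 61.7 CPM with PgLPS, 13.1, 13.2 and 10.9 CPM with CS-PA/CNP and 13.2, 14.6 and 11.9 CPM in control cells. Trim12a had 55.9, 56.6 and 51.2 CPM with both agents, 64.3, 57.2 and 54.9 CPM with PgLPS, 13.7, 13.3 and 12.9 CPM with CS-PA/CNP and 14.1, 15.9 and 14.8 CPM in control cells. The PgLPS and control libraries of each gene did not overlap, and the log2 fold changes were 2.27 ± 0.10 for Trim34a and 1.97 ± 0.09 for Trim12a (SE; edgeR adjusted p = 2.8e-13 for each). Trim12c had 83.3, 86.8 and 84.9 CPM with both agents, 101, 87.2 and 95.9 CPM with PgLPS, 21.98, 25.9 and 22.2 CPM with CS-PA/CNP and 23.3, 24.2 and 25.3 CPM in control cells. Trim5 had 16.7, 16.4 and 17.2 CPM with both agents, 20.4, 19.9 and 21.8 CPM with PgLPS, 5.58, 6.63 and 6.03 CPM with CS-PA/CNP and 6.13, 5.23 and 5.26 CPM in control cells. Both again separated fully by PgLPS, with log2 fold changes over control of 1.97 ± 0.08 for Trim12c (SE; edgeR adjusted p = 9.3e-14) and 1.90 ± 0.12 for Trim5 (SE; edgeR adjusted p = 4.9e-11). Trim6, whose human counterpart builds free ubiquitin chains that activate the kinase encoded by Ikbke, had 6.12, 2.83 and 4.97 CPM with both agents, 2.29, 3.44 and 4.08 CPM with PgLPS, 1.05, 1.13 and 1.296 CPM with CS-PA/CNP and 0.943, 1.21 and 0.839 CPM in control cells. Its PgLPS libraries lay above the control libraries at a low level, with a log2 fold change of 1.71 ± 0.33 (SE; edgeR adjusted p = 0.00017).

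Some of these genes are near copies, which can share or lose reads in counting. In GENCODE transcripts of GRCm38, 39.0% of the 100-base stretches of Trim34a also occur in another gene, with 21.0% shared with Trim34b. The share was 11.7% for Trim5, 8.05% for Trim12c and 3.29% for Trim12a, the largest part of it shared among these genes, and it was 4.41% for Trim30a and 4.57% for Trim30d, shared with each other. Values of genes within each of these sets are uncertain for this reason. The shares count only exact matches of 100 bases, so they do not measure the size of that uncertainty.

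**Figure D2:**
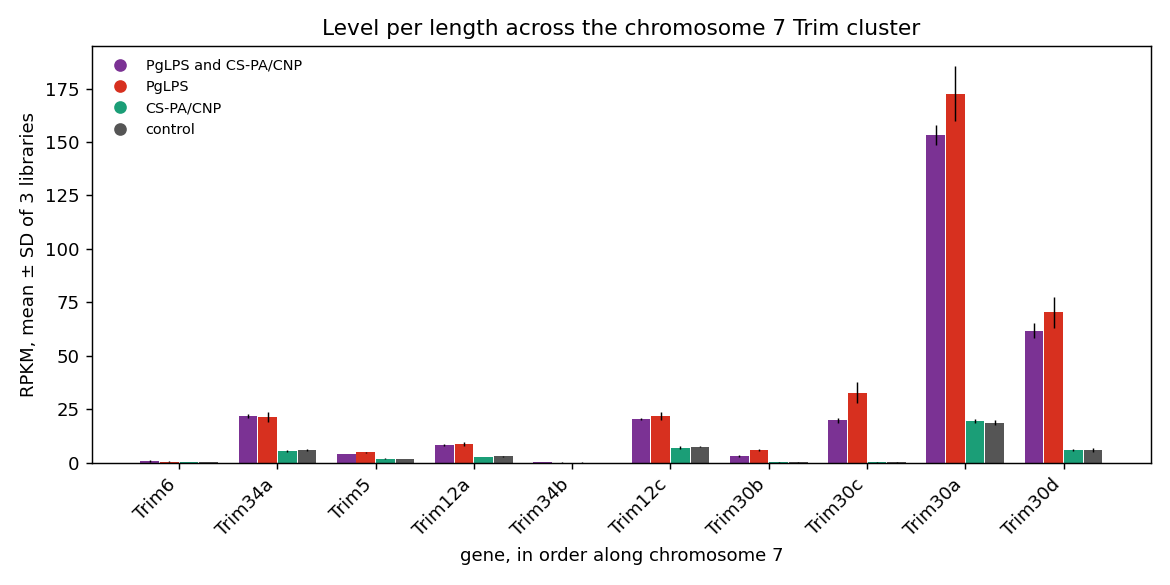
Level per gene length (RPKM) of the 10 Trim genes of the chromosome 7 cluster, in their order along the chromosome, as the mean of 3 libraries with the SD as error bar. Trim30a is highest in every group, Trim30d is next in both groups given PgLPS, and Trim34b, the gene left untested, lies at the axis.

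Per gene length, the order of the family differed with PgLPS. With PgLPS, Trim30a led at 173 ± 13.01 RPKM, followed by Trim25 at 71.7 ± 6.74 and Trim30d at 70.4 ± 7.31 RPKM, whose SDs overlap, then Trim8 at 36.2 ± 0.956 and Trim30c at 32.7 ± 4.89 RPKM, which overlap as well (mean ± SD, n = 3 each). In control cells Trim28 led at 52.4 ± 1.57 RPKM, followed by Trim35 at 39.2 ± 1.52, Trim25 at 37.2 ± 0.996 and Trim8 at 36.5 ± 1.33 RPKM (mean ± SD, n = 3 each). In control cells the SDs of Trim25 and Trim8 overlap, and those of Trim35 and Trim25 do too. RPKM are scaled by library totals and are used here for order between genes, not for change between groups.

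Trim proteins that act on nucleic acid sensing and innate signalling were a second group, with 20 genes, of which 17 were tested. With PgLPS 8 rose, 2 fell and 7 were not called, and the median log2 fold change was 0.21. The called genes are 58.8% of the tested ones, beside 63.8% of all genes. Trim21, the cytosolic antibody receptor, had 91.1, 88.1 and 79.9 CPM with both agents, 95.5, 96.2 and 103 CPM with PgLPS, 27.7, 20.8 and 21.5 CPM with CS-PA/CNP and 23.6, 21.1 and 19.6 CPM in control cells. Trim25, the ligase that ubiquitinates the RNA sensor RIG-I, had 487, 418 and 485 CPM with both agents, 521, 447 and 462 CPM with PgLPS, 176, 158 and 172 CPM with CS-PA/CNP and 187, 181 and 189 CPM in control cells. For both genes the libraries with PgLPS all exceeded those without. The log2 fold change over control was 2.19 ± 0.10 for Trim21 (SE; edgeR adjusted p = 4.8e-13) and 1.36 ± 0.07 for Trim25 (SE; edgeR adjusted p = 4.3e-12).

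Trim14, which in human cells works as an adaptor at the mitochondrial protein MAVS, had 71.9, 65.1 and 77.6 CPM with both agents, 84.4, 69.6 and 73.2 CPM with PgLPS, 33.9, 27.3 and 29.98 CPM with CS-PA/CNP and 27.7, 30.9 and 30.1 CPM in control cells. Trim56, a ligase that acts in DNA sensing through STING, had 115, 91.5 and 109 CPM with both agents, 133, 108 and 124 CPM with PgLPS, 62.2, 55.3 and 54.2 CPM with CS-PA/CNP and 58.9, 50.8 and 55.6 CPM in control cells. Neither gene's PgLPS libraries overlapped its control libraries, with log2 fold changes of 1.36 ± 0.10 for Trim14 (SE; edgeR adjusted p = 3.6e-10) and 1.14 ± 0.10 for Trim56 (SE; edgeR adjusted p = 3.8e-09). Trim14 overlaps Nans on the opposite strand and shares 27.7% of its 100-base stretches with it. Whether the counting used strand is not stated, so reads of these neighbours cannot be told apart. Nans itself was lower with PgLPS, by a log2 fold change of -0.46 (edgeR adjusted p = 0.00017). Among other tested members, Trim2, Trim7, Trim28, Trim32 and Trim41 also overlap a gene on the opposite strand. Trim16, Trim17, Trim47 and Trim65 overlap one on the same strand. Trim47 shares 4.74% of its stretches with Trim65, and Trim16 shares 3.01% with Fbxw10. The part of these overlaps in the calls was not tested. Below a 2-fold change, Trim26, which marks nuclear IRF3 for breakdown, rose by 0.95, Trim13, a ligase of the endoplasmic reticulum, by 0.91 and Trim41 by 0.63 on the log2 scale. Trim8, which ubiquitinates the kinase TAK1, rose by 0.41 with TMM scaling and had -0.0085 with library totals. Trim68 fell by 0.60 on the log2 scale and Trim32 fell by 0.39. The values that did not pass were 0.21 for Trim11, 0.08 for Trim35, 0.04 for Trim65, -0.02 for Trim23, -0.05 for Trim29, -0.16 for Trim27 and -0.16 for Trim62.

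The TIF1 co-repressors are Trim24, Trim28, Trim33 and Trim66, chromatin proteins that carry a bromodomain or bind heterochromatin protein 1. Of these 4 genes 2 fell with PgLPS and none rose, which is 50% called beside 63.8% of all genes. Trim28, the co-repressor of Krüppel-associated box zinc finger proteins, had 137, 146 and 136 CPM with both agents, 123, 124 and 121 CPM with PgLPS, 175, 170.5 and 178 CPM with CS-PA/CNP and 185, 196 and 186 CPM in control cells. Trim24 had 13.7, 12.4 and 14.03 CPM with both agents, 12.3, 11.5 and 11.9 CPM with PgLPS, 22.3, 20.3 and 22.1 CPM with CS-PA/CNP and 27.5, 24.3 and 23.2 CPM in control cells. For each gene all libraries with PgLPS lay below all libraries without it. The log2 fold change over control was -0.62 ± 0.06 for Trim28 (SE; edgeR adjusted p = 1.1e-08) and -1.07 ± 0.10 for Trim24 (SE; edgeR adjusted p = 2.7e-08). Trim33 had 0.03 ± 0.09 (SE) and Trim66 had -0.47 ± 0.67 (SE), neither called, and Trim66 was at the edge of detection. Among 8 partners of these co-repressors, 0 rose, 3 fell and 5 were not called with PgLPS, and library totals gave 7 lower. With TMM scaling 31.6% of all genes were called lower. Library totals moved the median of all genes by -0.41 on the log2 scale, and the share of all genes they call was not computed. Of the genes for heterochromatin protein 1, Cbx5 had a log2 fold change of -1.60 ± 0.08 (SE; edgeR adjusted p = 3.1e-12) and Cbx3 had -1.22 ± 0.09 (SE; edgeR adjusted p = 1.4e-09). Cbx1, also a gene for heterochromatin protein 1, was tested and not called with TMM scaling. Morc2a fell by 0.29 on the log2 scale (edgeR adjusted p = 0.0017), and Pphln1 had 0.12 ± 0.07 (SE), which did not pass.

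Of the 10 genes classed here as NHL and COS box proteins, 4 were tested and all were called, 2 higher and 2 lower. Of all genes 63.8% were called with PgLPS. Trim32, also an NHL protein, was counted with the sensing genes above, where it fell, so this even split depends on the classes chosen. Trim46, known from neurons for bundling microtubules at the start of the axon, had 1.17, 1.45 and 3.54 CPM with both agents, 3.81, 2.92 and 3.24 CPM with PgLPS, 2.43, 1.46 and 1.97 CPM with CS-PA/CNP and 1.26, 0.603 and 0.448 CPM in control cells. Its PgLPS libraries lay above all control libraries, while the libraries with both agents spread from the control range to that of PgLPS. The log2 fold change with PgLPS was 2.09 ± 0.42 (SE; edgeR adjusted p = 0.00025). Trim46 overlaps Krtcap2 on the opposite strand, which had a log2 fold change of 0.31 (edgeR adjusted p = 0.0052). Krtcap2 averaged 51.9 CPM with both agents, 49.6 CPM with PgLPS, 55.2 CPM with CS-PA/CNP and 39.9 CPM in control cells. These levels are far above those of Trim46, so a small part of the Krtcap2 reads would weigh heavily in its values. That part was not tested. Trim3, an NHL protein, rose by 0.88 on the log2 scale. Trim2, an NHL protein known to ubiquitinate neurofilament light chain, had 1.89, 1.45 and 1.57 CPM with both agents, 0.762, 1.104 and 1.44 CPM with PgLPS, 2.15, 3.02 and 2.77 CPM with CS-PA/CNP and 3.04, 2.81 and 1.96 CPM in control cells. At this low level the PgLPS libraries lay below all control libraries, with a log2 fold change of -1.22 ± 0.30 (SE; edgeR adjusted p = 0.0018). Trim36 fell by 0.35 (edgeR adjusted p = 0.035), a call that leaving out control library 1, PgLPS library 1 or PgLPS library 2 ended (edgeR adjusted p = 0.118, 0.142 and 0.0723), as did DESeq2 (adjusted p = 0.0539) and a fit of these 2 groups alone (edgeR adjusted p = 0.0567).

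Of the remaining 10 tested members, 5 fell with PgLPS and 0 rose, which is 50% called beside 63.8% of all genes. Trim59, a membrane protein of the endoplasmic reticulum, had 2.47, 2.55 and 2.52 CPM with both agents, 2.67, 2.99 and 2.64 CPM with PgLPS, 6.24, 6.47 and 7.77 CPM with CS-PA/CNP and 9.902, 10.7 and 9.68 CPM in control cells. It was the member that fell most, with the PgLPS and control libraries fully apart and a log2 fold change of -1.87 ± 0.16 (SE; edgeR adjusted p = 6.9e-09). Trim47 had 25.2, 26.4 and 20.9 CPM with both agents, 18.4, 20.7 and 17.5 CPM with PgLPS, 44.6, 47.1 and 45.7 CPM with CS-PA/CNP and 36.7, 46.8 and 45.98 CPM in control cells. Trim37, a centrosome and peroxisome ligase, had 16.9, 15.1 and 20.6 CPM with both agents, 14.1, 15.5 and 13.3 CPM with PgLPS, 31.97, 31.3 and 28.5 CPM with CS-PA/CNP and 34.3, 30.9 and 29.9 CPM in control cells. Both lay lower in every library with PgLPS, with log2 fold changes of -1.20 ± 0.11 for Trim47 (SE; edgeR adjusted p = 1.4e-08) and -1.15 ± 0.11 for Trim37 (SE; edgeR adjusted p = 3.9e-08). Trim16 fell by 0.72 and Trim44 by 0.21 on the log2 scale. The call of Trim44 ended without control library 1, PgLPS library 2 or PgLPS library 3 (edgeR adjusted p = 0.127, 0.201 and 0.0558), and that of Trim68 without PgLPS library 3 (edgeR adjusted p = 0.0565). Trim7, Trim17, Trim39, Trim43c and Trim45 were not called, with log2 fold changes between -0.40 and 1.08.

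**Figure D3:**
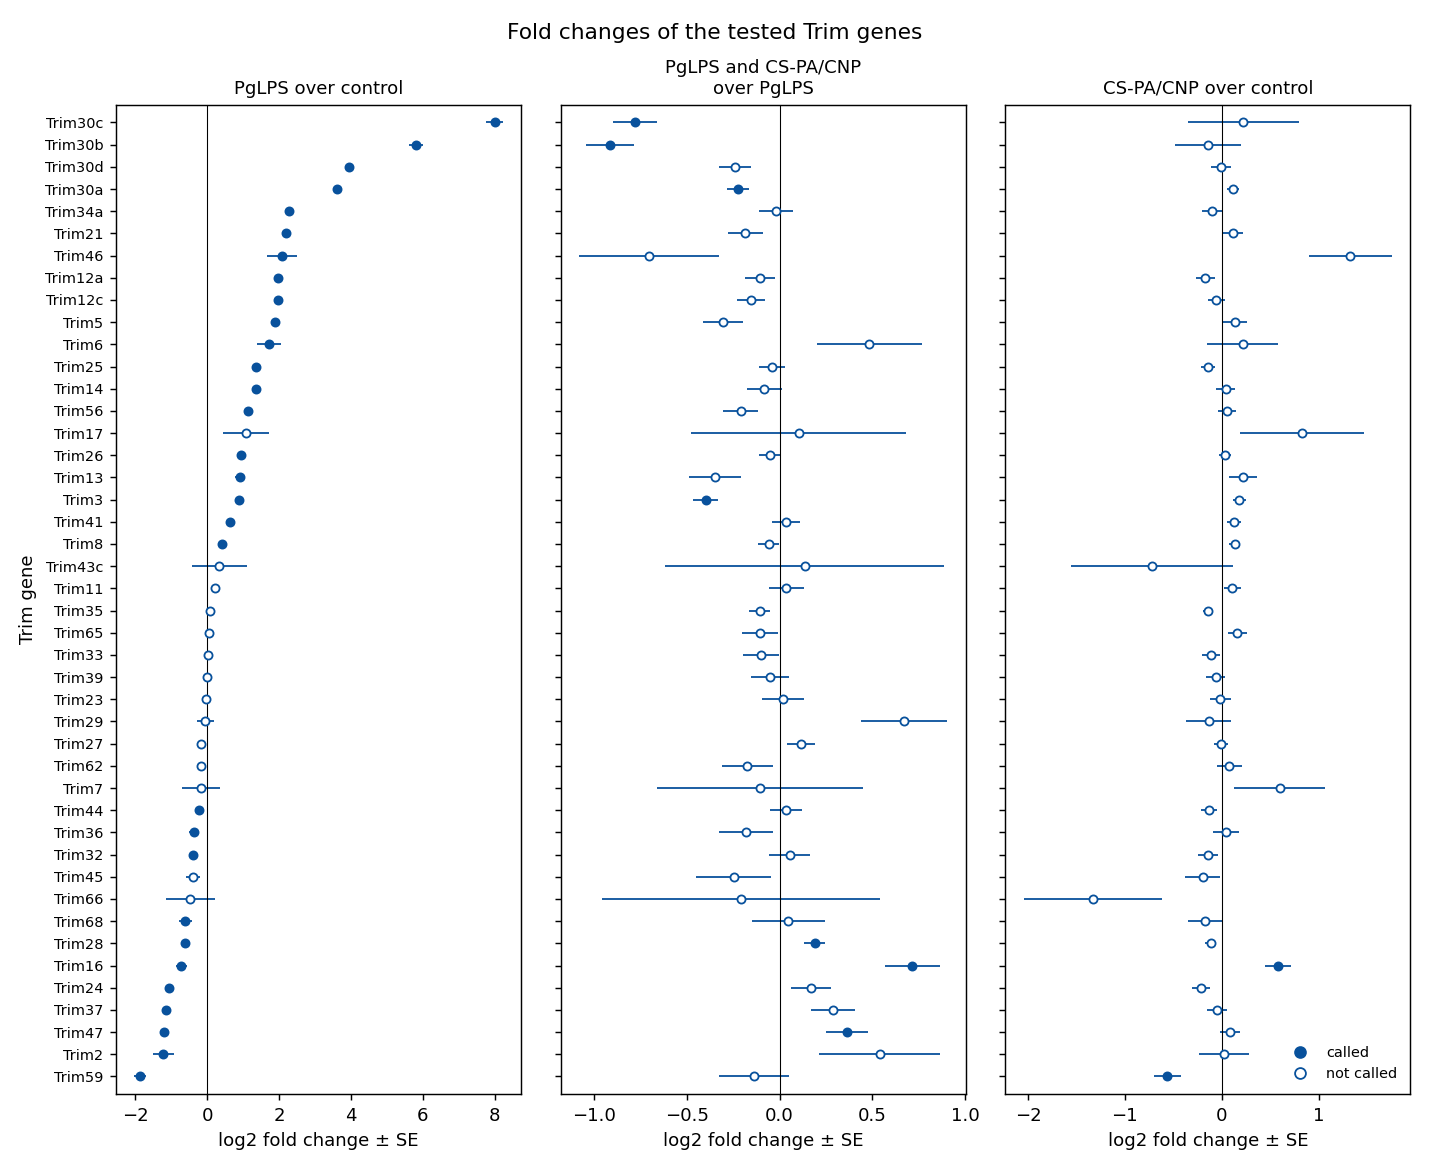
Log2 fold change with its SE for the 44 tested Trim genes, ordered by PgLPS over control, with filled points for genes called at an edgeR adjusted p under 0.05. The horizontal scales differ between panels: PgLPS over control reaches 8.0 for Trim30c, and both agents over PgLPS lies between -0.91 for Trim30b and 0.72 for Trim16.

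Both agents against PgLPS asked how the family differs when CS-PA/CNP is given with PgLPS. Trim30b, Trim30c, Trim3 and Trim30a were lower in cells given both, and Trim16, Trim47 and Trim28 were higher. These are 7 of 44 tested members, 3 higher and 4 lower (edgeR quasi-likelihood test), or 15.9% beside 19.5% of all genes, so the share called does not stand above the background. Among all genes 9.42% were higher and 10% lower. The median log2 fold change was -0.07 over the members and -0.0051 over all genes. With library totals the split was 5 higher and 3 lower.

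From the library values given above, Trim30b was lower in all 3 libraries with both agents than in any PgLPS library. Its log2 fold change was -0.91 ± 0.13 (SE; edgeR adjusted p = 3.3e-05), a level 1.88-fold lower. Trim30c likewise had no overlap, with a log2 fold change of -0.78 ± 0.12 (SE; edgeR adjusted p = 7.8e-05), a level 1.72-fold lower. Trim30a had -0.22 ± 0.06 (SE; edgeR adjusted p = 0.011), and this call ended with library totals (edgeR adjusted p = 0.0592) and without PgLPS library 1 (edgeR adjusted p = 0.0573). Trim30d had -0.24 ± 0.08 and Trim5 had -0.31 ± 0.11 (SE), with edgeR adjusted p = 0.054 and 0.0554, so neither was called, while DESeq2 called Trim30d (adjusted p = 0.047).

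A ratio within each library removes depth and scaling. Trim30b had 4.17, 3.47 and 3.86 reads per 100 reads of Trim30a with both agents, and 6.33, 6.06 and 6.16 with PgLPS. Trim30c had 5.61, 5.19 and 5.36 reads per 100 of Trim30a with both agents, and 8.60, 7.44 and 7.63 with PgLPS. Trim30d had 38.1, 36.3 and 36.2 with both agents, and 38.9, 36.9 and 35.9 with PgLPS. The groups did not overlap for Trim30b and Trim30c and did for Trim30d. The exact 2-sided permutation test gave p = 0.1 for Trim30b, 0.1 for Trim30c and 0.7 for Trim30d (0.15, 0.15 and 0.7 after Benjamini-Hochberg adjustment over 3 ratios). With 3 libraries against 3, 0.1 is the smallest p this test can give.

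**Figure D4:**
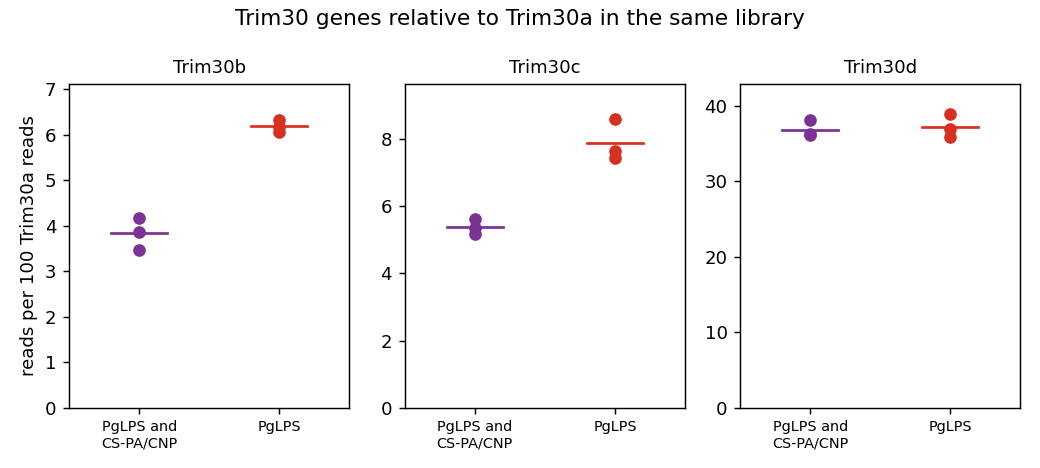
Reads of Trim30b, Trim30c and Trim30d per 100 reads of Trim30a in the same library, with 1 point per library and a line at the mean. The 3 libraries with both agents lie below the 3 PgLPS libraries for Trim30b and Trim30c and among them for Trim30d.

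Trim3 had 48.8, 49.4 and 49.9 CPM with both agents, 66.8, 62.4 and 65.8 CPM with PgLPS, 41.6, 40.6 and 38.4 CPM with CS-PA/CNP and 34.9, 34.7 and 36.5 CPM in control cells. The libraries with both agents lay below all PgLPS libraries and above all control libraries. Relative to PgLPS the log2 fold change was -0.40 ± 0.07 (SE; edgeR adjusted p = 0.00025). Trim16, which in human cells takes part in the clearance of damaged lysosomes, had 8.398, 8.04 and 7.15 CPM with both agents, 5.34, 4.22 and 4.86 CPM with PgLPS, 12.6, 11.4 and 11.3 CPM with CS-PA/CNP and 7.18, 8.39 and 8.06 CPM in control cells. With both agents it lay above all PgLPS libraries and overlapped the control libraries, and relative to PgLPS the log2 fold change was 0.72 ± 0.15 (SE; edgeR adjusted p = 0.0017).

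Trim47 was higher with both agents than with PgLPS by 0.36 ± 0.11 and Trim28 by 0.19 ± 0.06 (log2 ± SE; edgeR adjusted p = 0.03 and 0.022), and for neither gene did the libraries of these groups overlap. The call of Trim47 ended without PgLPS library 1 or 3, or without the first or second library with both agents (edgeR adjusted p = 0.0739, 0.127, 0.094 and 0.112). That of Trim28 ended without PgLPS library 3 or the second library with both agents (edgeR adjusted p = 0.0804 and 0.0849). With only these 2 groups in the fit, edgeR adjusted p was 0.0562 for Trim47 and 0.0677 for Trim28. Trim29 just missed the threshold at 0.67 ± 0.23 (SE; edgeR adjusted p = 0.0502), with a 95% interval of 0.18 to 1.16. It was called with library totals (edgeR adjusted p = 0.0333), without the filter on low counts (edgeR adjusted p = 0.0298) and without control library 1, CS-PA/CNP library 2 or 3, or the first library with both agents (edgeR adjusted p = 0.0401, 0.0417, 0.0443 and 0.046). Among all genes edgeR called 19.5% in this comparison. As reported and with DESeq2, 0 of the 17 tested sensing members, Trim29 among them, were called in this comparison, and 3 had an unadjusted p under 0.05. Of the others, Trim13 was called without the third library with both agents and Trim56 without PgLPS library 2 (edgeR adjusted p = 0.0303 and 0.031).

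CS-PA/CNP against control asked which members differ with CS-PA/CNP alone. Only Trim16 and Trim59 passed the test among 44 members, 1 higher and 1 lower (edgeR quasi-likelihood test), which is 4.55% beside 12.3% of all genes. Among all genes 6.67% were higher and 5.61% lower. The median log2 fold change was 0.01 over the members, and 0 of the 9 tested cluster genes was called (0 at an unadjusted p under 0.05, and 0 by DESeq2). Trim16 was higher in all 3 CS-PA/CNP libraries than in any control library, with a log2 fold change of 0.58 ± 0.13 (SE; edgeR adjusted p = 0.0051). Trim59 was lower without overlap, at -0.56 ± 0.14 (SE; edgeR adjusted p = 0.012), and its call ended without control library 2 or CS-PA/CNP library 1 (edgeR adjusted p = 0.0552 and 0.0591). Trim46 had 1.33 ± 0.43 (SE; edgeR adjusted p = 0.0522), with a 95% interval of 0.42 to 2.23, and was not called. It was called in 9 of its 18 alternatives. Among them were no filter on low counts, only the 2 groups compared and leaving out control library 1 (edgeR adjusted p = 0.00963, 0.0142 and 0.0256). Krtcap2, its opposite-strand neighbour, had 0.47 in this comparison (edgeR adjusted p = 0.0012), at a level far above that of Trim46. DESeq2 called 4 members here, Trim35 and Trim46 besides Trim16 and Trim59. Library totals gave 1 higher and 2 lower.

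Whether the effect of CS-PA/CNP differed with and without PgLPS was tested by their interaction, which is the log2 effect with PgLPS minus that without. It was called for 4 of 44 members, 1 higher and 3 lower, or 9.09% beside 15.8% of all genes, where 7.46% were higher and 8.34% lower. Trim3 had -0.40 with PgLPS and 0.18 without, a difference of -0.58 ± 0.10 (SE; edgeR adjusted p = 0.00025). Trim30a had -0.22 and 0.12, a difference of -0.34 ± 0.09 (SE; edgeR adjusted p = 0.011). Trim28 had 0.19 and -0.11, a difference of 0.30 ± 0.08 (SE; edgeR adjusted p = 0.011). Trim46 had -0.70 and 1.33, a difference of -2.03 ± 0.57 (SE; edgeR adjusted p = 0.019). The call of Trim30a ended without control library 3 or CS-PA/CNP library 1 and with library totals (edgeR adjusted p = 0.0575, 0.0512 and 0.0762). That of Trim46 ended without control library 2 or 3 or CS-PA/CNP library 1 (edgeR adjusted p = 0.0602, 0.0636 and 0.0595). For Trim16 the effect was 0.72 with PgLPS and 0.58 without, and its interaction of 0.13 ± 0.20 (SE) was not called. With library totals 2 were higher and 2 lower.

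**Figure D5:**
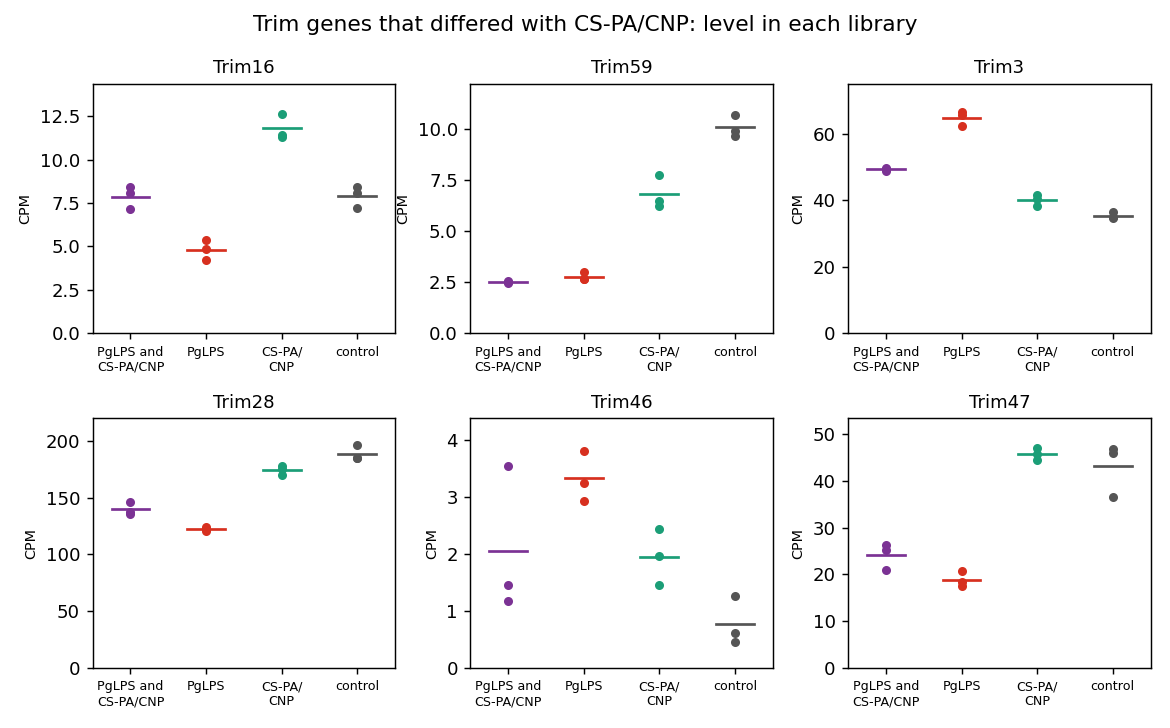
Level in CPM of 6 Trim genes that differed with CS-PA/CNP in a comparison or in the interaction, with 1 point per library and a line at the mean of 3. Trim16 is higher with CS-PA/CNP both with and without PgLPS, in cells given both agents Trim3 lies below its PgLPS libraries and Trim46 is spread widely.

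Both agents against control shares its control libraries with PgLPS against control, and its own values follow. Of 44 members 21 were higher, 11 lower and 12 not called (edgeR quasi-likelihood test), or 72.7% beside 58% of all genes, where 29.7% were higher and 28.4% lower. The median log2 fold change was 0.29 over the members and -0.0058 over all genes. Library totals moved the median of all genes by -0.36 on the log2 scale and gave 16 higher and 19 lower. All 9 tested cluster genes were higher, with a median log2 fold change of 2.25. The largest were 7.22 ± 0.23 for Trim30c, 4.90 ± 0.20 for Trim30b, 3.70 ± 0.10 for Trim30d and 3.40 ± 0.07 for Trim30a (SE). Trim34a had 2.25, Trim6 2.20, Trim21 2.01, Trim12a 1.87, Trim12c 1.81 and Trim5 1.60 on the log2 scale. Trim59 fell by 2.0, Trim24 by 0.90, Trim37 by 0.86, Trim47 by 0.83, Trim2 by 0.68, Trim45 by 0.65, Trim68 by 0.56, Trim36 by 0.53, Trim28 by 0.44 and Trim32 by 0.34 on the log2 scale. Trim2 was close to the threshold (edgeR adjusted p = 0.049) and lost its call in 12 of its 18 alternatives. The call of Trim68 ended without control library 3 or the first library with both agents (edgeR adjusted p = 0.0609 and 0.0932). Trim16 had -0.0011 ± 0.14 (SE) over control and was not called.

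Genes of the pathways that TRIM proteins act on were followed as lists. Beside the list counts here and below, of all genes 32.2% were higher and 31.6% lower with PgLPS. With both agents over PgLPS 9.42% were higher and 10% lower, and with CS-PA/CNP over control 6.67% and 5.61%. The interaction was called higher for 7.46% and lower for 8.34%. These shares of all genes are with TMM scaling, and none was computed for library totals. Of 21 measured genes of RNA and DNA sensing, 16 rose with PgLPS, 1 fell and 4 were not called, and library totals gave 13 higher and 3 lower. With both agents over PgLPS 0 rose and 7 fell, and library totals gave 0 higher and 5 lower. With CS-PA/CNP over control 7 rose and 0 fell, and library totals gave 4 higher and 1 lower. The interaction was called higher for 1 and lower for 5, with library totals as well. Irf7, an interferon regulatory factor, averaged 1114 ± 44.2 CPM with both agents, 1347 ± 112 CPM with PgLPS, 18.3 ± 1.398 CPM with CS-PA/CNP and 14.2 ± 0.484 CPM in control cells (SD, n = 3 each). Ddx58, which encodes RIG-I, averaged 556 ± 26.1 CPM with both agents, 674 ± 34.7 CPM with PgLPS, 41.2 ± 3.44 CPM with CS-PA/CNP and 32.1 ± 1.35 CPM in control cells (SD, n = 3 each). Both were higher with PgLPS than in control by far more than their SDs, with log2 fold changes of 6.57 ± 0.08 and 4.39 ± 0.07 (SE), and in cells given both agents they fell below PgLPS by 0.27 and 0.28 on the log2 scale (edgeR adjusted p = 0.0038 and 0.0036). The sensors Zbp1 and Ifi204 rose with PgLPS by 7.0 ± 0.08 and 3.93 ± 0.07 (log2 ± SE).

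All 22 measured interferon-stimulated genes rose with PgLPS, with a median log2 fold change of 5.27, and with both agents over PgLPS 0 rose, 5 fell and 17 were not called, while library totals gave 2 higher and 5 lower. With CS-PA/CNP over control 8 rose and 1 fell, and library totals gave 6 higher and 1 lower. The interaction was called higher for 0 and lower for 9, or for 0 and 7 with library totals. Rsad2 and Ifit1, antiviral effectors, rose with PgLPS by 8.20 ± 0.10 and 8.21 ± 0.11 (log2 ± SE), and Ifit2 rose by 7.86 ± 0.12. With both agents over PgLPS these 3 genes had 0.12, -0.08 and 0.19 on the log2 scale and were not called. Of 6 tested receptor and kinase genes of interferon signalling, 5 rose and 1 fell with PgLPS, and 5 fell with both agents over PgLPS, or 3 with library totals. Ifnar2, a subunit of the type I interferon receptor, averaged 165 ± 6.995 CPM with both agents, 251 ± 6.25 CPM with PgLPS, 87.6 ± 3.57 CPM with CS-PA/CNP and 81.2 ± 4.75 CPM in control cells (SD, n = 3 each). It was lower with both agents than with PgLPS by a log2 fold change of -0.60 ± 0.06 (SE; edgeR adjusted p = 7.4e-07). Ifnar1, Ifngr2 and Jak1 had -0.37, -0.27 and -0.20 in the same comparison. The ligand genes Ifnb1, Ifna1, Ifna2 and Ifna4 were too low to test.

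Of 10 TRIM family genes that carry another symbol, 5 were tested, and 3 rose, 1 fell and 1 was not called with PgLPS, and library totals gave 3 higher and 2 lower. Mefv, which encodes the inflammasome protein pyrin, averaged 86.9 ± 11.8 CPM with both agents, 141 ± 7.56 CPM with PgLPS, 22.3 ± 3.61 CPM with CS-PA/CNP and 11.3 ± 1.34 CPM in control cells (SD, n = 3 each). Its log2 fold change was 3.64 ± 0.12 for PgLPS over control, -0.70 ± 0.11 for both agents over PgLPS and 0.98 ± 0.13 for CS-PA/CNP over control (SE), and all 3 were called (edgeR adjusted p = 4.5e-15, 7.2e-05 and 2.6e-05). Pml, the organiser of nuclear bodies, averaged 253 ± 25.6 CPM with both agents, 242 ± 23.5 CPM with PgLPS, 40.5 ± 3.37 CPM with CS-PA/CNP and 29.8 ± 0.976 CPM in control cells (SD, n = 3 each). It rose with PgLPS by 3.02 ± 0.09 and with CS-PA/CNP by 0.44 ± 0.09 (log2 ± SE; edgeR adjusted p = 8.2e-16 and 0.003). Mid1, a microtubule-bound ligase, rose with PgLPS by 0.91 and Fsd2 fell by 1.92 on the log2 scale, the second at under 2 CPM in every group.

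The members that were counted but not tested held 1 to 56 reads over all 12 libraries. Trim15 had 56 reads, Trim9 44, Trim34b 40, Trim69 21, Trim72 9, Trim75 6, Trim38 5, Trim43a 4, Trim55 3, Trim58 3, Trim10 2 and Trim54 1. Trim9, a brain-enriched COS box protein, had 6, 12 and 3 reads with both agents, 0, 3 and 7 reads with PgLPS, 3, 5 and 4 reads with CS-PA/CNP and 0, 0 and 1 reads in control cells. Its reads were nearly absent in control cells and present in most other libraries, and without a filter on low counts it was called higher with both agents than in control. DESeq2 called it higher than in control both with PgLPS and with both agents. No read was counted for Trim31, Trim40, Trim42, Trim43b, Trim50, Trim52, Trim60, Trim61, Trim63, Trim67, Trim71 and Trim80. A count of 0 allows up to 3 reads, or 0.134 to 0.229 CPM by library for counting error only, so lower levels of these genes were not detectable at this depth.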

How the data were processed

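The authors deposited 1 table of 21899 genes with whole-number read counts per gene, not normalized, for 12 libraries. Another 12 columns of normalized values were not used, and RPKM were computed from the counts, the deposited gene lengths and the counted reads of each library. Tools listed in the submitters' processing notes are HISAT2 2.0.5, cutadapt 1.15, DESeq 1.30.0 and HTSeq 0.9.1, whose use is not described. The sources used here do not state the genome build, the annotation or the strandedness. Column letters were read as groups (C control, M CS-PA/CNP, L PgLPS, LM both), and library numbers are those of the columns.

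Tests on counts used edgeR 4.0.16 in R 4.3.3, with its quasi-likelihood F test (TMM, filterByExpr by group, 1 fit of 12 libraries with a mean per group, 2-sided) over 11656 genes, with Benjamini-Hochberg adjustment and a threshold of 0.05. The tested genes held 99.97% of reads. SE is the log2 fold change divided by the root of F. Alternatives were median ratio size factors, library totals, no filter, DESeq2 1.42.0, fits of only the 2 groups compared, leaving out each library and the column number as a replicate block. The scripts were tested on simulated counts. Pairs of libraries within a group differed by more than counting noise, with a chi-square of 2.78 to 17.9 per gene.

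Members, lists, classes and motifs were chosen with earlier results of these data known. Named are, per comparison, the 10 largest rises and falls among called members and, of each list, up to 4 tested genes with the smallest adjusted p with PgLPS. Genes changed at least 2-fold are given per library. The per-library values of Trim3, Trim16 and Trim9, the values of Trim29 and Trim46 near the threshold and the neighbours Nans and Krtcap2 were chosen after their values were seen. Promoters are from RefSeq in GRCm38.p6, and shared stretches from GENCODE transcripts of GRCm38. The start and end coordinates and strands in the deposited table were used only to find genes that overlap a Trim gene. Protein features were not analysed here.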

Additional observations from a re-analysis of the deposited data

Results flagged for a closer look

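The effect of CS-PA/CNP differed with and without PgLPS for 4 Trim genes by the interaction test of edgeR. The log2 difference was 0.30 for Trim28, -0.34 for Trim30a, -0.58 for Trim3 and -2.03 for Trim46, with edgeR adjusted p = 0.011, 0.011, 0.00025 and 0.019. Trim46 rests on 18, 25 and 52 reads with both agents, 50, 45 and 54 with PgLPS, 44, 27 and 44 with CS-PA/CNP and 24, 12 and 8 in control cells. Its overlapping neighbour Krtcap2 was higher with CS-PA/CNP than in control by 0.47 on the log2 scale. Krtcap2 averaged 55.2 CPM with CS-PA/CNP and 39.9 CPM in control cells, where Trim46 averaged 1.95 and 0.769 CPM. The part of that overlap was not tested. Groups of 3 libraries are too small for a test of single outlying libraries, so none was run.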

How the results depend on the processing

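Over all tested Trim genes and comparisons, 3901 values under an alternative were set beside the reported ones. Of these 3772 stayed on their side of the threshold, 63 kept direction and lost the call, 58 kept direction and gained one and 8 that were called before or after changed sign. Another 110 values, called neither before nor after and counted in the 3772, also changed sign, 94 of them when 1 library was left out and 12 with library totals. The 8 came with library totals, which shift the median of all genes down in these comparisons: for PgLPS over control Trim11 had -0.21, Trim33 -0.39, Trim35 -0.33, Trim39 -0.41, Trim65 -0.37 and Trim8 -0.0085 on the log2 scale, and for both agents over control Trim11 had -0.12 and Trim8 -0.015. For CS-PA/CNP over control, DESeq2 called 4 members in place of 2, and the cause was not tested. Leaving out each library in turn gave 28 to 31 members called for PgLPS over control, 5 to 9 for both agents over PgLPS, 1 to 3 for CS-PA/CNP over control, 27 to 32 for both agents over control and 2 to 5 for the interaction. The lowest value of 1 came without control library 2 and without CS-PA/CNP library 1, where Trim59 was lost. The lowest of 2 for the interaction came without control library 3 and without CS-PA/CNP library 1. The count columns are numbered 1 to 3 in each group, and nothing says that a number pairs libraries. Deviations from the group means correlated at -0.068 to 0.22 for the 18 pairs of libraries that share a number, 4 of them over 0.1, and 8 of 12 libraries correlated best with their own number. With the number as a replicate block, an alternative chosen after seeing the data, 32, 10, 3, 32 and 6 members were called in these 5 comparisons in the order just given. The block ended the call of Trim2 for both agents over control, and for both agents over PgLPS it added Trim29, Trim30d and Trim56. Trim genes with under about 1 CPM rest on few reads per library, and with 3 libraries a group small changes in them were not detectable at this depth.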
